A study of Mus musculus with 8 samples.

Results

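Neuromuscular junction (NMJ) myonuclei were sought among the single nuclei of mouse gastrocnemius muscle, the large calf muscle. A nucleus was counted as an NMJ myonucleus when it held at least 4 unique molecular identifiers (UMIs, each standing for 1 captured RNA molecule) summed over Chrne, Chrna1, Colq, Musk, Etv5 and Ufsp1, came from at least 3 of these 6 genes, and held no UMI of Pdgfra, Pecam1 or Ptprc, which mark fibro-adipogenic, endothelial and immune nuclei. The rule found 272 nuclei among the 64803 retained, or 0.42%, and these nuclei held 0.52% of all UMIs.

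A skeletal muscle fibre is a long cell with many nuclei, and the few that lie under the motor nerve ending transcribe the postsynaptic apparatus. Agrin released by the nerve binds Lrp4, which activates the receptor kinase MuSK, and acetylcholine receptors are then clustered by rapsyn and Dok7. Neuregulin and ETS factors such as Etv4 and Etv5 are known to sustain transcription of synaptic genes in these nuclei, whereas electrical activity silences them along the rest of the fibre.

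The mice were wild-type C57BL/6. Old mice, labelled Aging, were 20 months old and Young mice 3 months. The Running and Sedentary mice were 11 months old before the 2 months of treadmill training given to the Running mice. Each of the 4 groups had 2 libraries, replicate 1 from a 10x Genomics set and replicate 2 from a second set whose matrices were made with another counting tool, so the library set is a batch. The labels do not say how many mice entered a library, so p-values measure only the spread between these libraries.

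The 10x libraries held 10587 to 12991 retained nuclei with median depths of 1664 to 3001 UMIs, and the second set 4228 to 4772 nuclei with 909 to 1689.5 UMIs. NMJ myonuclei had median depths of 2549 to 4727 UMIs in the 10x set and 1131 to 1721 UMIs in the second set, Old 2 left aside. Old 2 held only 2 NMJ myonuclei and did not enter the fits, so the Old group rests there on 1 library. No barcode was shared between NMJ myonuclei of different 10x libraries. Barcodes of the second set are running numbers and could not be compared.

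Promoters of Chrne, Chrna1 and Musk are shown because transcription of these genes at the synapse defines the nuclei. They encode the adult epsilon subunit and the alpha subunit of the acetylcholine receptor and the agrin-responsive kinase. The sequences are RefSeq promoter windows on GRCm38.p6, 250 bases before to 50 bases after the start site, 5′ to 3′ on the gene's strand. Capitals mark CCGGAA, the N-box that ETS factors bind, and CAGCTG, an E-box that myogenic factors bind, searched on both strands. The windows lie at chr11:70619145-70619444 (minus strand) for Chrne, chr2:73580289-73580588 (minus strand) for Chrna1 and chr4:58285712-58286011 (plus strand) for Musk.
Chrne: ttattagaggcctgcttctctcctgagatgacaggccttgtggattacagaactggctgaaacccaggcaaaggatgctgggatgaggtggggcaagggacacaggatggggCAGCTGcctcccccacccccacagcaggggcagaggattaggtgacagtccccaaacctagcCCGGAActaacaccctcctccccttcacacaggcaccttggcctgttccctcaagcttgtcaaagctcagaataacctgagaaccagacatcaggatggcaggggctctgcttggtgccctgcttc
Chrna1: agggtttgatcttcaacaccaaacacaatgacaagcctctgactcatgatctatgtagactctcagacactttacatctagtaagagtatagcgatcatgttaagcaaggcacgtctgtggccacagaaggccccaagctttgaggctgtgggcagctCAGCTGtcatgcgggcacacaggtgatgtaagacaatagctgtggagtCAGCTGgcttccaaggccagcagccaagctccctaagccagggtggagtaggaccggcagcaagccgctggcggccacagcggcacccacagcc
Musk: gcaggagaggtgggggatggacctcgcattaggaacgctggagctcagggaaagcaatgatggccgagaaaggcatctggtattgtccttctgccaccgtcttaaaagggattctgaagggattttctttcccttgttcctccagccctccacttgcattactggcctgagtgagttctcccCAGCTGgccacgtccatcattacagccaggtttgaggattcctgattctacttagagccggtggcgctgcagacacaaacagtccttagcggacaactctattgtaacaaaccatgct

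The N-box of Chrne began 76 bases before the start site and its E-box 138 bases before it. Chrna1 held E-boxes 92 and 44 bases before the start site and Musk 1 at 68 bases. Of the 6 genes of the rule, 5 had a window in the RefSeq table, of which 1 held an N-box and 4 an E-box. Of the 12 genes named below as higher in NMJ myonuclei, 9 had a window, 1 with an N-box and 1 with an E-box. These counts are of genes, some with several windows, whereas the shares that follow are of windows. Among all 32851 windows of the same length, 14.9% held CCGGAA on either strand and 16.3% held CAGCTG. These matches describe letters in a window and do not show a bound site.

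The 6 genes chose the nuclei, so their levels are given as a description. Musk had a UMI in 247 of the 272 nuclei (90.8%), Colq, the collagen tail that anchors acetylcholinesterase, in 217 (79.8%) and Chrne in 198 (72.8%). Ufsp1, a UFM1-specific protease, had a UMI in 168 (61.8%), the ETS factor Etv5 in 160 (58.8%) and Chrna1 in 108 (39.7%). The summed UMIs of the 6 genes in a nucleus ranged from 4 to 101 with a median of 9, and 26 nuclei held all 6 genes.

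Levels are given as UMIs of a gene per 1000000 UMIs of the same nuclei (CPM), summed over the nuclei of a library. Chrne stood at 488, 821, 1173 and 295 CPM in Old 1, Young 1, Running 1 and Sedentary 1, and at 395, 831 and 888 CPM in Young 2, Running 2 and Sedentary 2. In other myofibre nuclei, retained nuclei that expressed fibre genes and did not meet the rule, Chrne was at 2.72 to 12.1 CPM. Chrna1 ranged from 76.1 to 276 CPM against 0.536 to 6.37 CPM, Colq from 746 to 1902 against 0.666 to 28.0, and Musk from 775 to 1953 against 22.1 to 146. Etv5 ranged from 327 to 925 CPM against 1.85 to 15.9 CPM and Ufsp1 from 212 to 913 against 1.98 to 10.5. The ranges did not overlap for any of the 6 genes over the 7 libraries, which the rule itself brings about.

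At the edge of the rule, 25 NMJ myonuclei held exactly 4 UMIs and 106 exactly 3 of the genes. Outside it, 167 nuclei held 4 or more UMIs from only 2 of the genes, 19 held 3 UMIs from 3 genes, and 30 met the UMI rule and held a UMI of Pdgfra, Pecam1 or Ptprc. The class therefore has no sharp border at this depth.

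The label was checked against genes that the rule did not use. Ano4, a membrane protein of the anoctamin family, and Col4a3, a collagen IV chain of the synaptic basal lamina, are the markers by which the study named this class on these samples, so they are not independent evidence of its direction. Ano4 in NMJ myonuclei was at 1194, 1493, 4074 and 3000 CPM in Old 1, Young 1, Running 1 and Sedentary 1 and at 2028, 1857 and 1547 CPM in Young 2, Running 2 and Sedentary 2, against 3.51 to 39.3 CPM in other myofibre nuclei. The lowest NMJ value lay far above the highest value elsewhere in the fibre. Col4a3 ranged from 323 CPM in Old 1 to 1441 CPM in Running 2, against 2.52 to 21.4 CPM. NMJ myonuclei, 0.42% of nuclei, held 35.9% of all Ano4 UMIs and 23.9% of all Col4a3 UMIs.

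**Figure D1:**
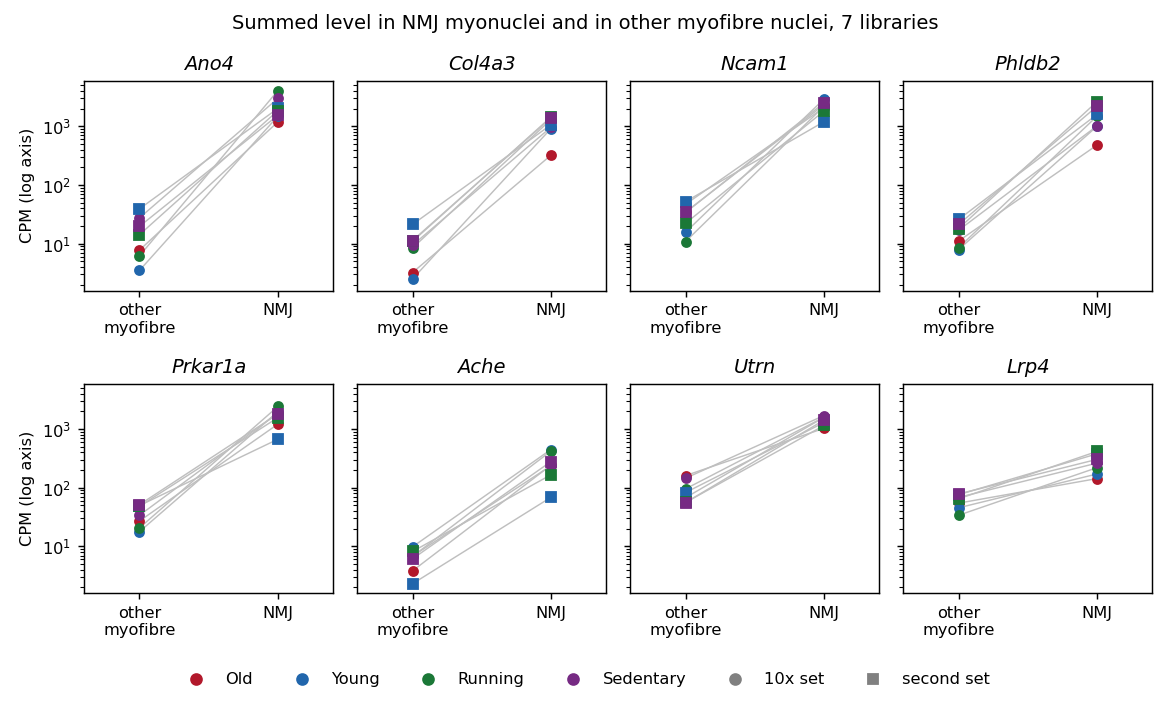
Summed level in CPM (log axis) of 8 genes outside the rule in NMJ myonuclei and in other myofibre nuclei, 1 point per library and condition, a line joining the 2 values of a library, circles for the 10x set and squares for the second set. In all 8 genes each of the 7 libraries rises from left to right, steeply for Ano4 (log2 fold change 6.99) and less so for Lrp4 (1.82).

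Counts were summed per library and NMJ myonuclei were compared with other myofibre nuclei across 7 libraries. Of 13892 genes tested, 539 were higher in NMJ myonuclei and 1513 lower (edgeR quasi-likelihood test, Benjamini-Hochberg adjusted p under 0.05), so 3.88% of genes were called higher and 10.9% lower. The split depended on scaling. With DESeq2 size factors 672 genes were higher and 747 lower, the median log2 difference of all genes moving from -0.35 to -0.11. Because of this dependence, small differences are read against a median of -0.35. Among the 5775 genes with at least 20 UMIs in NMJ myonuclei, 465 were higher and 447 lower. That filter removes genes rare in NMJ myonuclei, so it lowers the count of lower genes by itself and says nothing about scaling.

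The 12 genes named by size, all higher in each of the 7 libraries, lay 5.84 to 7.03 above other myofibre nuclei on the log2 scale. The noncoding RNA Gm13387 led at 7.03 (SE 0.31), followed by Ano4 at 6.99 (SE 0.16) and B4galnt3, a glycosyltransferase, at 6.87 (SE 0.25). Rps6ka1, a kinase of the RSK family downstream of ERK, was higher by 6.66 (SE 0.22) and Tafa4, a secreted chemokine-like protein, by 6.62 (SE 0.21). Phldb2 (LL5beta), which anchors microtubules at the postsynaptic membrane, was higher by 6.19 (SE 0.16). Ncam1, a neural adhesion molecule concentrated at the synapse, was higher by 5.97 (SE 0.15) and Col13a1, a transmembrane collagen of the junction, by 5.84 (SE 0.24). The others were Col4a3 (6.65), Pdzrn4 (6.02), Epb41l4a (5.86) and Col19a1 (5.84). All 12 remained higher and called in each of 26 alternative analyses. Several overlap other genes on either strand (B4galnt3 with D330020A13Rik, Ncam1 with Gm11149, Col4a3 with C430014B12Rik), and whether counting used strand is not given in the sources used here.

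Gm13387, a long intergenic RNA at chr2:25122603-25145396 (minus strand, GENCODE on GRCm38), had 202 UMIs in NMJ myonuclei, 39.8% of its UMIs in the whole series. It was found in 90 NMJ myonuclei and at 85.9 to 324 CPM, against 0.357 to 2.59 CPM in other myofibre nuclei. Ano4 lies at chr10:88948994-89344762 (minus strand), and Col13a1 at chr10:61838236-61979108 (minus strand).

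Of the acetylcholine receptor subunits outside the rule, 3 of 3 were called higher. Chrnd, the delta subunit, held 15, 6, 6 and 3 UMIs in Old 1, Young 1, Running 1 and Sedentary 1 and 1, 5 and 2 UMIs in Young 2, Running 2 and Sedentary 2, and its log2 difference was 6.52 (SE 0.49). It was present in every library of the fit, at few UMIs. Chrnb1, the beta subunit, was at 51.6 to 214 CPM against 13.7 to 36.5 CPM, a log2 difference of 2.08 (SE 0.24), so the ranges did not overlap although other myofibre nuclei also held its RNA. Chrng, the fetal gamma subunit, had 8 UMIs in Old 1, 1 in Running 1, 2 in Young 2 and none elsewhere. Its log2 difference of 3.6 (SE 0.68) was no longer called without Old 1 (2.50, edgeR adjusted p = 0.12).

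Among 15 genes of the agrin, Lrp4 and MuSK pathway, 1 was called higher and 3 lower, with a median log2 difference of -0.59. Lrp4, the agrin receptor, was at 143, 172, 220 and 263 CPM in Old 1, Young 1, Running 1 and Sedentary 1 and at 378, 416 and 304 CPM in Young 2, Running 2 and Sedentary 2, against 34.0 to 78.3 CPM in other myofibre nuclei. Every NMJ value exceeded every other value, and the log2 difference was 1.82 (SE 0.19, edgeR adjusted p = 3.67e-19). Rapsn, which encodes the receptor-clustering protein rapsyn, differed by -0.82 (SE 0.42, adjusted p = 0.19), Dok7, the MuSK adaptor, by -0.88 (SE 0.44, adjusted p = 0.18) and Agrn, agrin, by 0.51 (SE 0.40, adjusted p = 0.45). The 3 lower calls, the kinases Abl1 (-0.71) and Abl2 (-0.59) and the Wnt adaptor Dvl1 (-0.71), were close to the median of all genes, and with DESeq2 size factors none of the list was called lower.

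In the list of neuregulin and ETS factors, which also holds Prkar1a from outside both, 3 of 9 genes were higher and none lower. Etv4, an ETS factor paired with Etv5 in synaptic transcription, ranged from 36.6 CPM in Running 1 to 374 CPM in Running 2, against 0.925 to 2.13 CPM, with a log2 difference of 6.05 (SE 0.37). Prkar1a, a regulatory subunit of protein kinase A, was at 670 CPM in Young 2 and 1212 to 2425 CPM in the other 6 libraries, against 17.8 to 51.4 CPM, a log2 difference of 5.31 (SE 0.15). NMJ myonuclei held 19.7% of all Prkar1a UMIs. Erbb4, a neuregulin receptor, was higher by 0.84 (SE 0.21), a difference that fell to -0.04 (adjusted p = 0.96) when nuclei with any of 7 markers of other cell types were left out. Mrc1, itself higher in NMJ myonuclei, is among the 7, and with the other 6 alone Erbb4 was at 0.28 (adjusted p = 0.51). Gabpa, the subunit of the N-box factor GABP that binds DNA, differed by -0.55 (SE 0.36, adjusted p = 0.34).

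The synaptic basal lamina list had 7 of 14 genes higher and 4 lower. It holds Col4a3, by which the study named the class, and like all the lists was chosen with earlier results of these data known. The count is therefore a description. Beside Col4a3 and Col13a1, Ache (acetylcholinesterase, which breaks down the transmitter) was higher by 5.14 (SE 0.25), at 68.8 to 448 CPM against 2.31 to 9.84 CPM. The partner collagen chains Col4a4 and Col4a5 were higher by 3.88 (SE 0.30) and 3.15 (SE 0.27). Lama2, the laminin chain of the whole fibre surface, was higher by 2.97 (SE 0.12), and Lamb2, a laminin chain concentrated at the synapse, by 0.72 (SE 0.25, adjusted p = 0.034), a call lost in 9 of 26 alternatives. Lama4 (-1.65), Nid1 (-2.23), Lamc1 (-0.69) and Dag1 (-0.58) were lower, and 2 of these 4 calls were left with DESeq2 size factors. The list median was 0.64.

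Utrophin and dystrophin went in opposite directions. Utrn, the dystrophin homologue of the synapse, was at 1028, 1582, 1588 and 1699 CPM in Old 1, Young 1, Running 1 and Sedentary 1 and at 1289, 1150 and 1420 CPM in Young 2, Running 2 and Sedentary 2, against 56.0 to 161 CPM, and was higher by 3.63 (SE 0.14). Dmd, dystrophin, was lower by 0.90 on the log2 scale (log2 difference -0.90, SE 0.07) and stayed lower in each alternative, from -1.37 to -0.64. Sntb2, a syntrophin of the junction, was higher by 2.71 (SE 0.24), although Old 1 held 36.7 CPM, below its other myofibre nuclei at 41.2 CPM. Sntb1 (-1.91), a syntrophin of the same complex, was lower. In all 3 of 11 genes were higher and 3 lower.

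Of 12 genes for cytoskeleton and nuclear anchoring, 5 were higher and 2 lower. Nes, the intermediate filament nestin, was higher by 5.72 (SE 0.32) and Syne1, nesprin-1, which tethers nuclei beneath the synapse, by 1.49 (SE 0.14). Macf1, a linker of microtubules and actin, was higher by 1.02 (SE 0.15), and Sun2, a partner of nesprins in the nuclear envelope, was at -1.64 (SE 0.29). For adhesion and excitability, 8 of 13 genes tested were higher and none lower, with a median of 1.4. That list holds Ano4, by which the study named the class, and was chosen with earlier results of these data known. Its count is therefore a description. The 8 included Vav3 at 5.19 (SE 0.16), Lrfn5, a synaptic adhesion protein, at 5.59 (SE 0.20), Ank3, ankyrin-G, at 1.4 (SE 0.09) and Scn4a, the muscle sodium channel, at 0.72 (SE 0.16).

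**Figure D2:**
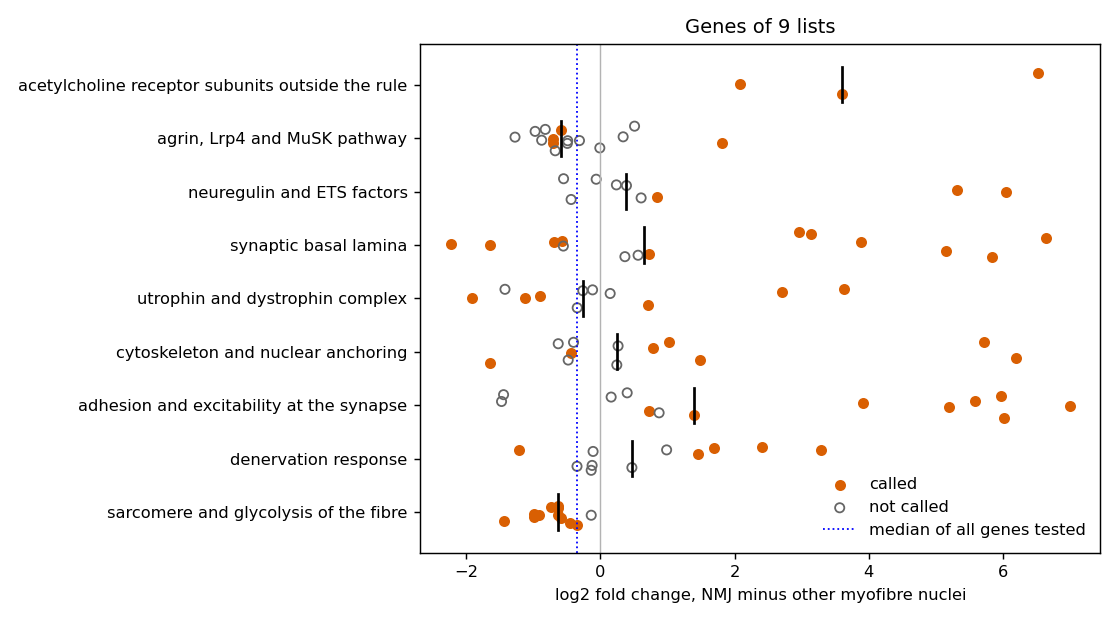
Log2 fold change of each gene tested in 9 lists, NMJ minus other myofibre nuclei. The lists were chosen with earlier results of these data known. Filled points were called (edgeR adjusted p under 0.05), open points were not, the black bar is the list median and the dotted line the median of all genes tested, -0.35. Adhesion and excitability (median 1.4) and the 3 receptor subunits (3.6) lie to the right, and the sarcomere and glycolysis list (-0.64) has no gene called higher.

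The sarcomere and glycolysis list was lower, with 11 of 12 genes called and a median of -0.64. The other myofibre nuclei, and not the NMJ myonuclei, had been chosen on fibre UMIs. Mybpc2, fast myosin-binding protein C, was at -1.43 (SE 0.14), Ckm, muscle creatine kinase, at -1.0 (SE 0.10) and Pfkm, phosphofructokinase, at -1.0 (SE 0.13). Ldha, lactate dehydrogenase A, was at -0.14 (SE 0.16, adjusted p = 0.63). Against all other retained nuclei with Pdgfra, Pecam1 and Ptprc at 0, 9 of the 12 were lower, and with DESeq2 size factors 7.

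The 8 genes named as lower were rare in NMJ myonuclei, so UMIs are given beside the number that the level in other myofibre nuclei of the same library would give. Col6a3, a collagen of connective tissue, had 2 UMIs where 44.1 would be given, a ratio of 0.0453 (95% Poisson interval 0.00549 to 0.164). Ddr2, a collagen receptor of fibroblasts, had 4 where 51.0 would be given, and Cdh4, a cadherin, 5 where 46.7 would be given. Dkk2 had 3 UMIs, Nlgn1 3, Cmbl 3 and Sh3kbp1 6. Gm10719, one of a family of near-identical genes, is uncertain, since reads can be split among its copies. The interval covers counting error only. Of the 8, 7 lost the call in 1 or 2 alternatives, Col6a3 with an edgeR adjusted p of up to 0.72.

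In the denervation list, genes known to be induced when a fibre loses its nerve, 4 of 11 were higher and 1 lower. Myog, a myogenic factor, was higher by 2.41 (SE 0.46) with 31 UMIs in 16 nuclei. Runx1, a transcription factor induced by denervation, was higher by 1.69 (SE 0.30), Myh3, embryonic myosin, by 3.29 (SE 0.59) with 16 UMIs in 4 nuclei, and Gadd45a by 1.45 (SE 0.37). Old 1 held 148 of the 179 Runx1 UMIs, and without it Runx1 was at 0.85 (edgeR adjusted p = 0.15). When only nuclei with an Ano4 or Col4a3 UMI were kept, none of the 11 was called higher. Fbxo32, atrogin-1, was lower (-1.22, SE 0.15).

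The nuclei were not uniform. An Ano4 or Col4a3 UMI was found in 219 (80.5%) and in neither gene in 53. Nuclei with neither made up 18 of 50 in Old 1, 11 of 38 in Young 1, 4 of 40 in Running 1 and 8 of 51 in Sedentary 1, and 3 of 25, 3 of 35 and 5 of 31 in Young 2, Running 2 and Sedentary 2. Of the 53, 41 came from the deeper 10x set. Their median depth was 6063 UMIs against 3465.5 in Old 1 and 3970 against 2857 in Young 1. It was 3922 against 3720.5 in Running 1 and 3701.5 against 2397 in Sedentary 1. In the second set it was 3240 against 1680.5 in Young 2, 1472 against 1599 in Running 2 and 1247 against 1118.5 in Sedentary 2. Their median UMIs of the 6 rule genes were 9 against 15.5 in Old 1 and 7 against 16 in Young 1. They were 5.5 against 22 in Running 1 and 5.5 against 10 in Sedentary 1. In Young 2 and in Sedentary 2 they were 4 against 8, and only in Running 2 higher, 9 against 8. This split was made after the values were seen and is given with no test.

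Summed over 8 libraries, Etv5, which the rule used to choose the nuclei, was at 74.4 CPM without and 742 CPM with. Outside the rule, Prkar1a was at 266 and 2240, Utrn at 294 and 1802, Lama2 at 376 and 3104, and Vav3 at 47.0 and 1786. These 5 genes were lower without than with in each of 7 libraries, Old 2 left aside. In the other direction, Runx1 was at 611 CPM without and 35.8 CPM with, Myog at 90.0 and 12.4, Eda2r, a receptor of the tumour necrosis factor family, at 313 and 57.6, and Sorbs2 at 654 and 316. Old 1 held much of this, with 17 of the 23 Myog, 54 of the 80 Eda2r and 124 of the 167 Sorbs2 UMIs of the nuclei with neither. Sorbs2 in Running 2 was at 1033 CPM without and 902 CPM with. Myog was at 0 UMIs in the nuclei with neither of Young 1, Running 1, Sedentary 1 and Running 2. Chrna1 had no 1 direction, at 242 CPM without and 199 with in Old 1, 173 and 331 in Young 1, 433 and 61.3 in Young 2, and 0 UMIs without in Running 2 and Sedentary 2. Chrng had 11 UMIs in 5 of the 53 nuclei and 0 UMIs in the 219. In Old 1, 139 of 148 Runx1 UMIs lay in 8 of the 18 nuclei with neither marker. In each other library the nuclei with neither marker held 0 to 9 Runx1 UMIs. Runx1 was higher without than with in Old 1, Running 1, Sedentary 1 and Young 2. In Young 1, Running 2 and Sedentary 2 it was at 0 CPM without and at 22.8, 30.6 and 29.6 CPM with.

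**Figure D3:**
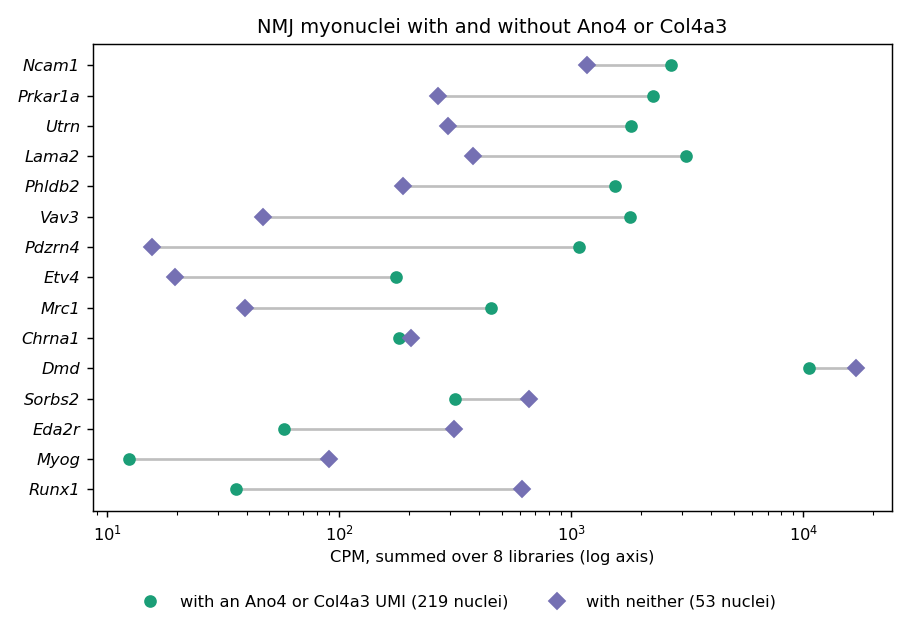
Summed CPM (log axis) of 15 genes in the 219 NMJ myonuclei with an Ano4 or Col4a3 UMI (circles) and in the 53 with neither (diamonds), over 8 libraries. Vav3 stood at 1786 against 47.0 CPM, and Runx1 at 35.8 against 611, 139 of the 156 Runx1 UMIs of the diamonds coming from Old 1. Old 1 also holds 33 of the 52 Chrna1 UMIs of the diamonds.

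Most markers of other cells were not called higher in NMJ myonuclei. The summed level of 5 endothelial markers was 0 to 101 CPM in NMJ myonuclei and 28.5 to 148 CPM in other myofibre nuclei, and that of 5 fibro-adipogenic markers 25.4 to 238 against 155 to 888 CPM. For Schwann cells, which cover the nerve ending, 5 markers summed to 0 to 101 CPM against 17.6 to 54.1 CPM, with S100b at 0 UMIs. The ranges for adipocyte markers were 25.4 to 261 against 153 to 402 CPM, for mural markers 186 to 516 against 347 to 533 CPM, and for muscle stem cell markers 0 to 134 against 12.7 to 21.8 CPM. For motor axons, Chat, Nefl, Nefm and Snap25 were at 0 UMIs. In other myofibre nuclei their median levels were 0.536, 0.164, 0.417 and 1.58 CPM, and that of S100b 1.09 CPM. At such levels 0 UMIs lies near the floor and does not show absence. Of the muscle spindle markers Etv1 (1.79, SE 0.42) and Myh6 (1.93, SE 0.67) were called higher, but 12 of 13 Myh6 UMIs came from 1 nucleus of Sedentary 1, and without that library the difference was -0.80. Spindle markers summed to 22.4 to 397 CPM in NMJ myonuclei against 22.1 to 72.0 CPM, higher in 6 of 7 libraries. Of the myotendinous junction, Col24a1 was lower at -2.52 (SE 0.41). Ankrd1 was higher by 1.32 (SE 0.44) with 41 UMIs in 7 nuclei, but stood at 0.03 without Old 1 (edgeR adjusted p = 0.99), and 11 of 26 alternatives did not call it.

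Of the macrophage markers Mrc1, the mannose receptor CD206, was higher by 2.92 (SE 0.21) and Tbxas1, thromboxane synthase, by 3.29 (SE 0.31). Mrc1 had 300 UMIs in 96 NMJ myonuclei, at 25.4 to 791 CPM against 13.9 to 64.5 CPM in other myofibre nuclei. It was higher within each of the 7 libraries, although the 2 ranges overlapped. Other macrophage markers did not follow, F13a1 holding 10 UMIs where 21.4 would be given at the level of other myofibre nuclei, Cd163 2 where 6.72 would be given and Csf1r 1 where 3.16 would be given. These 3 summed to 0 to 85.9 CPM. Without any nucleus that held F13a1, Cd163 or Csf1r, Mrc1 and Tbxas1 were still called higher.

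The fibre type of NMJ myonuclei was compared with that of other myofibre nuclei. Each nucleus was thinned to 500 UMIs and assigned the myosin heavy chain with most UMIs. Nuclei with a tie or without a myosin UMI were left out, and the shares are of the nuclei kept. Kept were 44 of 50, 34 of 38, 35 of 40 and 33 of 51 NMJ myonuclei in Old 1, Young 1, Running 1 and Sedentary 1. In Young 2, Running 2 and Sedentary 2 these were 23 of 25, 34 of 35 and 30 of 31. Of other myofibre nuclei in Sedentary 1, 6065 of 8529 were kept. Myh4, the fast IIb myosin, led in 72.7%, 97.1%, 88.6% and 60.6% of NMJ myonuclei in Old 1, Young 1, Running 1 and Sedentary 1 and in 87.0%, 97.1% and 90.0% in Young 2, Running 2 and Sedentary 2. The same shares of other myofibre nuclei were 79.5%, 95.4%, 85.7%, 61.3%, 81.2%, 97.0% and 92.9%. The shares moved with the library far more than with the kind of nucleus, the mean difference being 0.0169 percentage points ± 4.08 (SD, 7 libraries; exact sign-flip permutation test, two-sided, p = 0.969). Myh1 differed by 0.190 ± 2.68 points, Myh2 by -1.62 ± 2.31 and Myh7 by 1.41 ± 3.07, with adjusted p of 0.969, 0.5 and 0.625 by the same exact test. Its smallest p is 0.0156, so with 4 myosins a single one cannot reach an adjusted p below 0.0625. Without thinning Myh2 led less often in NMJ myonuclei in 7 of 7 libraries, by -1.88 ± 1.55 points (exact permutation p = 0.0156, adjusted p = 0.0625). Myh4 differed by 3.69 ± 4.8 points under the stricter rule (exact permutation p = 0.109).

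The share of NMJ myonuclei was compared next, with the question whether age or running changes their number. In the 10x set it was 0.428% in Old 1 (95% Wilson interval 0.325 to 0.564), 0.322% in Young 1 (0.235 to 0.442), 0.308% in Running 1 (0.226 to 0.419) and 0.482% in Sedentary 1 (0.367 to 0.633). In the second set it was 0.0419% in Old 2 (0.0115 to 0.153), 0.554% in Young 2 (0.376 to 0.817), 0.828% in Running 2 (0.596 to 1.15) and 0.732% in Sedentary 2 (0.516 to 1.04). Old 2 lay below every other library, whereas Old 1 lay within the range of the rest of its set.

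**Figure D4:**
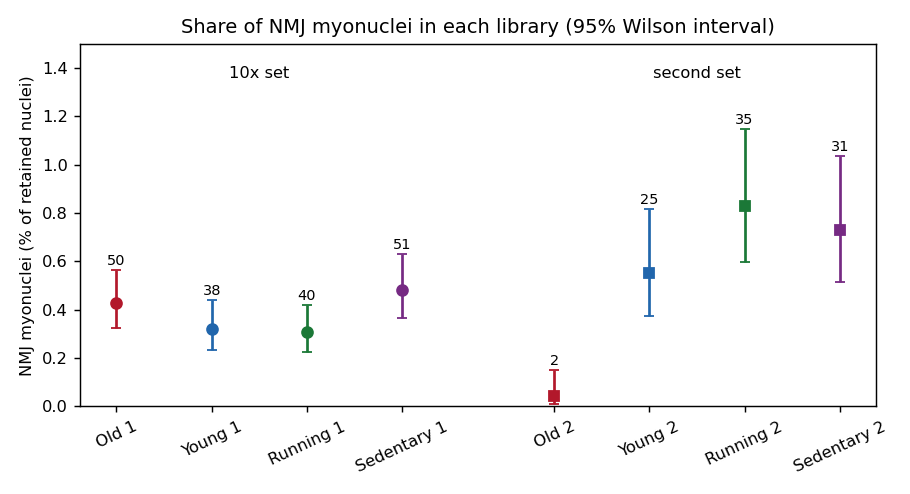
Percent of retained nuclei that were NMJ myonuclei in each library, with 95% Wilson intervals and the number of nuclei above each. Old 2 has 2 nuclei (0.0419%), and the intervals of the 10x libraries overlap.

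Old libraries averaged 0.235% ± 0.273 (SD, n = 2) and Young libraries 0.438% ± 0.164 (SD, n = 2), a difference of -0.203 points (exact permutation test, two-sided, p = 0.667, smallest possible 0.33). The share tests did not pair the libraries by set, so the SDs and the tests also hold the difference between the sets. The sets disagreed, with 0.106 points in the 10x set and -0.512 points in the second. Running libraries averaged 0.568% ± 0.368 and Sedentary libraries 0.607% ± 0.177 (SD, n = 2 each), a difference of -0.0391 points (exact permutation p = 1.0), with -0.174 and 0.0956 points in the 2 sets. Median depth differed between libraries, and Old 2 had the second lowest at 941 UMIs. Sedentary 2 had the lowest at 909 UMIs and a share of 0.732%. The part of depth in the low share of Old 2 was not tested. With every nucleus thinned to 500 UMIs and 2 UMIs from 2 genes required, the share was 0.293% in Old 2 and 0.421% in Young 2, 0.197% in Old 1 and 0.246% in Young 1. This looser rule also takes in nuclei that the main rule leaves out. It counted 14 nuclei in Old 2, where the main rule counted 2, and 47 in Sedentary 2, where the main rule counted 31. Running minus Sedentary was then -0.324 points, lower in both sets (-0.177 for 10x and -0.471 for the second), and -0.536 points at 1000 UMIs, with -0.369 and -0.703 (exact permutation p = 0.667 for both). At 1000 UMIs 1726 of 4234 nuclei were deep enough in Sedentary 2.

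Old and Young were then compared gene by gene within NMJ myonuclei, with Old 1 alone for Old, its spread assumed to be that of the other groups, and the library set as a term. Of 4386 genes, edgeR called 0 (0.0%), 198 having an unadjusted p under 0.05, and DESeq2 called 0. The 3 smallest p-values belonged to A430010J10Rik, Mrc1 and Gsn, each with an adjusted p of 0.0747. A430010J10Rik had 110 UMIs in 3 nuclei of Old 1 and 0 in both Young libraries. Mrc1 was at 99.2 CPM in Old 1 and at 791 and 275 CPM in Young 1 and Young 2, a log2 difference of -2.96 (SE 0.57). Gsn, gelsolin, an actin-severing protein, was at 364 CPM in Old 1 against 29.9 and 34.4 CPM, a difference of 3.43 (SE 0.69), and in other myofibre nuclei it was at 1276 CPM in Old 1 against 227 and 124 CPM.

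No listed gene was called between Old and Young in this fit. With DESeq2 size factors Runx1 and Mrc1 were, and Runx1 was called in 6 of 14 alternatives and Mrc1 in 7 of 17. The denervation list had a median of 1.02 over 8 genes, with Runx1 at 4.06 (SE 0.82, edgeR adjusted p = 0.0747), at 544 CPM in Old 1 against 14.9 and 51.6 CPM in Young 1 and Young 2, a difference of 1.97 without Young 1, 5.07 without Young 2 and 1.21 without nuclei holding any of 6 markers of other types. The synaptic basal lamina list had a median of -0.39 over 11 genes, the utrophin and dystrophin complex -0.47 over 10 and adhesion and excitability -0.79 over 10, beside -0.01 over all genes. The counts rested on single libraries, since 83 genes were called without Young 2, 38 without Sedentary 1 and 37 without Sedentary 2.

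Running and Sedentary were compared in the same fit. Of 4386 genes, 1 was called (0.0228%) and it was Mrc1, higher in Running by 3.25 on the log2 scale (SE 0.53, edgeR adjusted p = 0.0222). Mrc1 stood at 702 CPM in Running 1 and 305 CPM in Running 2, and at 83.3 CPM in Sedentary 1 and 25.4 CPM in Sedentary 2. The groups did not overlap, and the log2 difference was 2.90 within the 10x set and 3.09 within the second. The UMIs were spread over 22 of 40 and 13 of 35 Running nuclei and 10 of 51 and 1 of 31 Sedentary nuclei. In other myofibre nuclei the same libraries held 34.0, 13.9, 19.2 and 15.7 CPM, and whether the difference is larger in NMJ myonuclei was not tested.

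Fibro-adipogenic markers moved with Mrc1 between these groups. Their summed level in NMJ myonuclei was 238 and 152 CPM in Running 1 and 2 and 44.9 and 25.4 CPM in Sedentary 1 and 2, with Dcn, a matrix proteoglycan of these cells, at 2.93 (SE 0.92, edgeR adjusted p = 0.79) and Abca8a at 3.95 (SE 1.22, adjusted p = 0.79). In other myofibre nuclei the same markers summed to 468 and 159 CPM in Running 1 and 2 and to 247 and 163 CPM in Sedentary 1 and 2. Old 1, low in Mrc1, had 213 CPM of them in NMJ myonuclei, and their part in the Mrc1 difference was not tested.

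**Figure D5:**
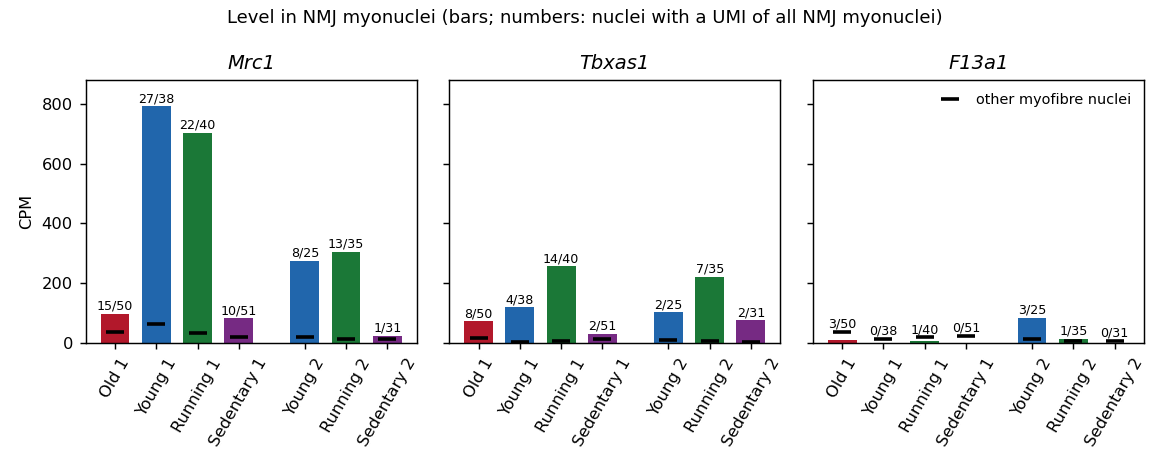
CPM of Mrc1, Tbxas1 and F13a1 in NMJ myonuclei of 7 libraries (bars) with the level in other myofibre nuclei (black marks), the number above each bar giving nuclei with a UMI of all NMJ myonuclei. Mrc1 is higher in Running 1 and 2 (702 and 305) than in Sedentary 1 and 2 (83.3 and 25.4), whereas F13a1 stays at or below 85.9 CPM.

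The Mrc1 difference kept its direction in all 19 alternatives, from 2.55 to 3.62, but was not called in 8 of them, among them DESeq2 (adjusted p = 0.12), the 2 groups alone (0.11), no term for the library set (0.76) and thinning to 500 UMIs (0.27). It was also lost without Running 1 (1.0), Running 2 (1.0) or Sedentary 1 (0.62), and without nuclei holding any of 6 markers of other types (2.55, 0.22). Tbxas1 was at 257 and 222 CPM in Running 1 and 2 and 32.0 and 76.1 CPM in Sedentary 1 and 2, a difference of 2.53 (SE 0.64, adjusted p = 0.64) in the same fit. Counts again rested on single libraries, with 23 genes called without Young 1, 16 without Young 2 and 37 without Sedentary 2, and 0 without Running 1, Running 2 or Sedentary 1. The sarcomere and glycolysis list had a median of 0.81 over 12 genes beside 0.03 over all genes, and none of its genes was called.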

How the data were processed

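Single-nucleus RNA-seq of frozen gastrocnemius was deposited as filtered UMI counts per gene and nucleus, which the authors made with Cell Ranger 6.1.2 (10x set) or PISA 0.12 (second set, per the file headers) on mm10. The submitters' processing notes also name Seurat 4.1.1. Ages, strain and training come from the study's methods. The counts are raw, not normalized. Here nuclei with over 200 and under 6000 genes and under 6% mitochondrial UMIs were retained, 64803 of 65280. Other myofibre nuclei held at least 5 UMIs over 9 fibre genes from at least 3 of them and no UMI of 7 markers of other types. The members and lists were chosen with earlier results of these data known. Counts were summed per library with at least 10 members, over genes found in all 8 libraries (21207 symbols), without mitochondrial, ribosomal and rule genes, and tested with edgeR 4.0.16 (TMM, filterByExpr, quasi-likelihood) in R 4.3.3, the library as a block, or with the library set as a term between groups. Replicate numbers follow the library set that the labels give, which pairs the libraries. DESeq2 1.42.0 was an alternative. No doublets were removed in the main fits (the highest 6% by Scrublet in scanpy 1.11.5 were left out as an alternative). Exact permutation tests used scipy 1.17.1. Scripts were tested on simulated data. Named genes were the 12 higher and 8 lower called genes of largest fold whose average log2 CPM reached 5 and whose direction was 1 in every library, the listed genes, and between groups up to 5 called genes in each direction or the 3 smallest p. A few listed genes are not reported here.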

Additional observations from a re-analysis of the deposited data

How the results depend on the processing

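The count of genes higher in NMJ myonuclei (539) fell to 284 without nuclei holding any of 7 markers of other types, 199 after thinning to 500 UMIs and 214 in the second set alone, with fewer genes tested in each. The count of lower genes (1513) was 747 with DESeq2 size factors, 363 by DESeq2, 907 without the 7 markers, 895 in the 10x set, 299 in the second set, 447 with at least 20 UMIs, and 384 with that filter and size factors, the last 2 chosen after seeing the data. The filter of 20 UMIs counts NMJ myonuclei only, so it removes genes rare there. Leaving out single libraries gave 439 to 547 higher and 880 to 1263 lower. Between Old and Young, 0 to 83 genes were called without single libraries, 4 with size factors, 14 without a filter on low counts, 10 by the stricter rule, 2 without doublets, 1 without the 7 markers, 1 after thinning, 7 without 6 markers and 14 without nuclei holding F13a1, Cd163 or Csf1r. Between Running and Sedentary, 0 to 37 were called without single libraries, 3 with size factors, 8 without the filter, 6 by the stricter rule, 3 without doublets, 2 without 6 markers, 10 without F13a1, Cd163 or Csf1r, and 0 without the 7 markers (Mrc1 is among them, so it could not be called), after thinning, by DESeq2 and in the 2 groups alone. Without the replicate block (no term for the library set) 0 were called between Running and Sedentary and 0 between Old and Young. Old and Young could not be fitted alone, nor without Old 1. The share difference Old minus Young was 0.0117 points at 1000 UMIs and -0.396 to -0.0104 without single libraries. Running minus Sedentary was -0.324 at 500 UMIs, -0.536 at 1000 UMIs, 0.0810 by the stricter rule, 0.00636 with myofibre nuclei as the total, 0.00687 for nuclei with Ano4 or Col4a3, and -0.299 to 0.221 without single libraries. The Myh1 difference was -0.265 without thinning, -1.83 by the stricter rule, -0.0896 at like depth, -0.308 without doublets and -0.609 to 0.684 without single libraries, and Myh4 -0.942 to 1.16 (3.69 by the stricter rule, 1.30 without thinning), Myh2 -2.12 to -0.988 and Myh7 0.632 to 2.11. Single genes that turned were Erbb4 (-0.0433 without the 7 markers), Gadd45a (-0.42 in nuclei with Ano4 or Col4a3), Pvalb (0.0155 in the 10x set), Myh6 (-0.49 by the stricter rule and -0.80 to 2.50 without single libraries, the lowest without Sedentary 1), Agrn (-0.019 after thinning), F13a1 (1.33 in the second set) and A430010J10Rik between Old and Young (-0.94 without 7 markers and -0.46 without 6). The cause was not tested for any of these. Depth limits the comparisons between groups, since 25 to 51 nuclei make up each sum.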
